A study of Mus musculus with 12 samples.

Results

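The 10 genes described here encode enzymes that remove methyl groups from histones with molecular oxygen, or a close relative of those enzymes. They are Kdm3a, Kdm4a, Kdm4b, Kdm4c, Kdm5a, Kdm5b, Kdm6b, Kdm2a, Kdm2b and Jmjd6. Their probes were found by gene symbol or older synonym in the platform annotation of an Illumina mouse bead array. The annotation gave 32 probes to these genes alone, of 45281 probes on the array, and a further probe annotated to Kdm6b together with another gene was left out. Of the 32 probes, 25 passed the detection filter, as did 21223 probes in all, and each of the 10 genes kept at least 1 probe. The 7 probes that did not pass belong to Kdm2b (3 probes), Kdm5a (2 probes), Kdm4a (1 probe) and Kdm4b (1 probe), and all 4 of these genes kept other probes.

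These enzymes share the JmjC domain, which binds iron and uses oxygen and 2-oxoglutarate to hydroxylate a methyl group on lysine. The hydroxylated methyl group leaves as formaldehyde, and succinate and carbon dioxide are the by-products. The members differ in the residue they act on, and so in the chromatin mark that they erase. Because oxygen is a substrate, low oxygen can slow the enzymes, while several of their genes are known targets of the hypoxia-inducible factors (HIFs), the transcription factors that accumulate at low oxygen. Arrays measure RNA only and give no value for enzyme activity or for a histone mark.

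RNA was measured in mouse embryonic fibroblasts (MEFs) of the genotypes TAp73-/- and TAp73+/+. TAp73 is the class of p73 isoforms that carries the transactivation domain, and it is encoded by Trp73. The 6 groups were TAp73-/- untreated, TAp73-/- at 4 h of hypoxia, TAp73-/- at 8 h of hypoxia, TAp73+/+ untreated, TAp73+/+ at 4 h of hypoxia and TAp73+/+ at 8 h of hypoxia, with 2 arrays each and 12 arrays in all. Hypoxia was 1% oxygen, and untreated cells of both genotypes stayed at 21% oxygen. All cells grew in DMEM with 10% serum and 5% CO2. The labels do not give the number of embryos or MEF lines behind each genotype, so genotype and line cannot be told apart. Nor do they say whether the replicates of a group came from separate cultures, so the p-values measure only the spread between arrays, which may be technical. With RNA from whole cultures, fewer cells expressing a gene and less RNA per cell cannot be told apart either.

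The arrays resembled each other in depth: 42.8% to 44.5% of probes were detected, the mean signal was 428.7 to 607.8, and replicate arrays correlated at 0.9914 to 0.9967 across probes. The 1 probe of Trp73 was detected on 5 of 6 TAp73-/- arrays and on 0 of 6 TAp73+/+ arrays. Its position relative to the deleted part of the gene is not given, so it does not check the labels. Of 12 fibroblast markers, 4 were detected on all arrays and 5 on none (Col1a1, Col1a2, Dcn, Lum and Postn). The summed signal of the 12 was 8094 to 9718 on TAp73-/- arrays against 4307 to 9517 on TAp73+/+ arrays. Of the markers of other cell types with a probe, 2 of 5 epithelial, 1 of 5 macrophage, 1 of 4 skeletal muscle, 1 of 4 neural, 0 of 6 endothelial and 0 of 4 adipocyte markers were detected on all arrays, and 3 endothelial, 1 macrophage, 1 muscle and 1 neural marker on some. At background on every array were Pecam1, Tie1 and Vwf (endothelial), Ptprc, Adgre1 and Itgam (macrophage), Epcam, Krt5 and Krt14 (epithelial), Myod1 and Acta1 (muscle), Sox10 and Gfap (neural) and all 4 adipocyte markers. The summed signal was 797.2 to 987.6 on TAp73-/- arrays against 732.2 to 899.5 on TAp73+/+ arrays for epithelial markers, and 722.5 to 1013 against 644.5 to 892.7 for neural ones. For the other 4 lists it was 213.8 to 602.9 on TAp73-/- arrays against 239.5 to 574.4 on TAp73+/+ arrays. Their part in the results was not tested. Probes of one gene did not always move together on these arrays, and a score of that disagreement, built from 4571 genes with several probes, was 0.39 to 0.59 on the untreated TAp73+/+ arrays and between -0.37 and 0.30 on the other 10. Under hypoxia, 14 of 15 known hypoxia marker genes rose in TAp73-/- cells and 13 of 15 in TAp73+/+ cells, at 4 h and at 8 h alike. Among all genes, 2.39% and 8.60% rose at 4 h and 8 h in TAp73-/- cells, and 11.7% and 10.4% in TAp73+/+ cells.

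Levels are given as log2 of the normalised signal, and differences as log2 differences with the standard error (SE) of limma's moderated fit over all 12 arrays. A difference is called when its p-value, adjusted by Benjamini-Hochberg over all 21223 probes of that comparison, is below 0.05. Shares of all probes or all genes are at this threshold, and none was counted at an unadjusted p. The main probe of a gene is the one with the highest mean signal among its probes past the filter. Counts of genes in a list, and shares of all genes, use main probes. Shares of all probes also include the other probes of each gene, so they are a looser measure beside counts of genes. Levels of different probes are on different scales and are not compared with each other.

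The RNA of Kdm3a, Kdm4b, Kdm6b and Jmjd6 rose under hypoxia in both genotypes, at 4 h and at 8 h, by 0.65 to 1.40 on the log2 scale at their main probes. At the main probes, Kdm4a was called higher in TAp73+/+ cells at both times, Kdm4c in TAp73+/+ cells at 8 h, and Kdm2a in TAp73-/- cells at 8 h. Each of these 8 h calls was lost without some arrays. For no member probe was a difference in response between the genotypes called. No main probe was called lower. In TAp73-/- cells, 8 of 25 member probes were higher and 0 lower at 4 h, where 5.26% of all probes were called. At 8 h, 11 were higher and 0 lower, where 14.9% of all probes were called. In TAp73+/+ cells, 12 were higher and 2 lower at 4 h, where 33.3% of all probes were called. At 8 h, 12 were higher and 1 lower, where 21.0% were called. Upward calls made up 2.63% of all probes at 4 h and 7.38% at 8 h in TAp73-/- cells, and 16.3% and 10.8% in TAp73+/+ cells. Downward calls made up 2.63% and 7.56% in TAp73-/- cells and 17.0% and 10.2% in TAp73+/+ cells. Beside the 0 downward calls of limma in TAp73-/- cells, 1 member probe fell at an unadjusted p below 0.05 at 4 h and 0 at 8 h. Counted by main probe, 4 and 5 of 10 genes were higher in TAp73-/- cells at 4 h and 8 h, against 5 and 6 of 10 in TAp73+/+ cells. The upward share of all genes was 2.39% and 8.60% in TAp73-/- cells and 11.7% and 10.4% in TAp73+/+ cells. The median log2 change of the main probes was 0.20 and 0.38 in TAp73-/- cells at 4 h and 8 h, with -0.03 and 0.00 over the main probes of all 10873 genes. It was 0.56 and 0.57 in TAp73+/+ cells, with -0.07 and -0.02 over all genes. The 10 genes were chosen with earlier results of these data known. Setting their counts and medians beside those of all probes or genes is therefore not a test. Leaving out any 1 of 8 arrays (untreated or 4 h of TAp73-/-, 4 h or 8 h of TAp73+/+) lowered the count of 8 at 4 h in TAp73-/- cells to 5, the probes that lost their call being 2 of Kdm6b and 1 of Kdm5b. With the probe disagreement score in the fit, 2 and 11 member probes were called at 4 h and 8 h in TAp73-/- cells and 0 and 8 in TAp73+/+ cells, with larger standard errors, and all 46 called values kept their sign.

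**Figure D1:**
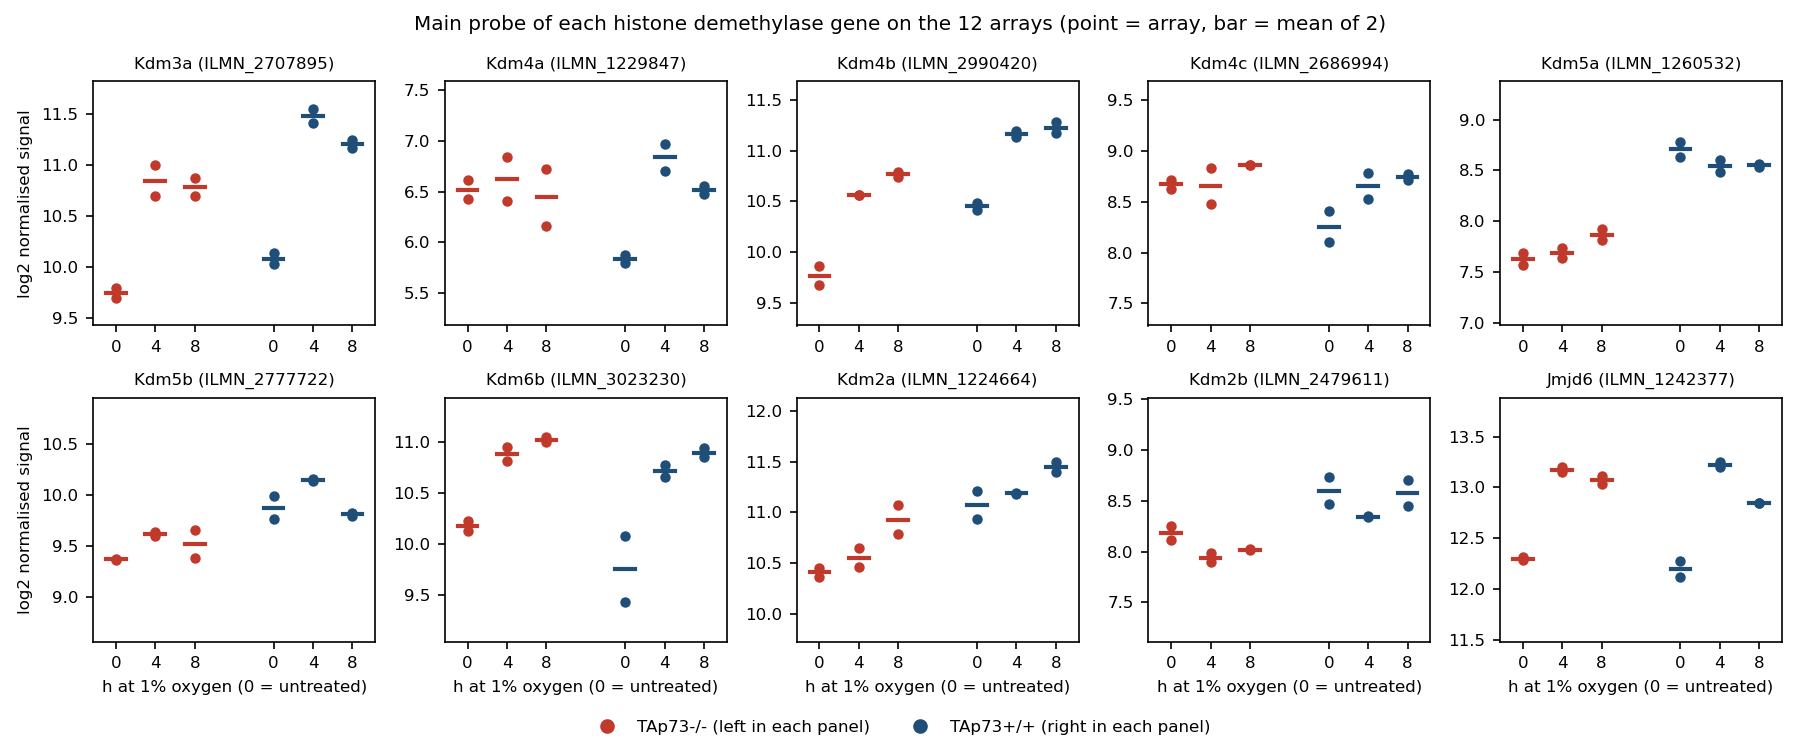
Log2 normalised signal of the main probe of each of the 10 genes (vertical axes, 1 panel per gene, each with its own range) against hours at 1% oxygen (horizontal axes), with TAp73-/- arrays on the left and TAp73+/+ arrays on the right of each panel. Points are arrays and bars are means of 2: Kdm3a, Kdm4b, Kdm6b and Jmjd6 stand higher at 4 h and 8 h than untreated in both genotypes, and Kdm4a does so in TAp73+/+ cells. Kdm2a, Kdm2b, Kdm3a, Kdm4b, Kdm5a and Kdm5b stand lower in TAp73-/- than in TAp73+/+ cells at every time.

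The promoters of 6 members (Kdm2b, Kdm3a, Kdm4a, Kdm4c, Kdm5b and Jmjd6) were matched in RefSeq (GRCm38.p6) as 12 windows of 300 bases, from 250 bases before to 50 bases after a transcription start. Each was searched on both strands for the core of the HIF binding element, ACGTG or GCGTG. Of 32851 promoters of this length, 19.6% hold ACGTG, 32.4% hold GCGTG, 43.8% hold either, and 7.15% hold CACGTG, a palindrome that contains ACGTG on both strands. The 3 windows below are shown because Kdm3a and Jmjd6 were called higher in all 4 comparisons of hypoxia with untreated cells, while Kdm4c was called in 1 of the 4 and yet has the window with the most matches. Capitals mark the matches, read on either strand, and the sequences run 5′ to 3′ on the gene's strand. The Kdm3a window lies at chr6:71632868-71633167 (minus strand), the Jmjd6 window at chr11:116843400-116843699 (minus strand) and the Kdm4c window at chr4:74251629-74251928 (plus strand).
Kdm3a: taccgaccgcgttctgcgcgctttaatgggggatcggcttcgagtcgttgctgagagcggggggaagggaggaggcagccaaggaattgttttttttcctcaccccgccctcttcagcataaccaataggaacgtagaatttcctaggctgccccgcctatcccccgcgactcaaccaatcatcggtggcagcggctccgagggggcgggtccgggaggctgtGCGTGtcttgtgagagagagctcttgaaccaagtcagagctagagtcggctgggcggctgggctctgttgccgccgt
Jmjd6: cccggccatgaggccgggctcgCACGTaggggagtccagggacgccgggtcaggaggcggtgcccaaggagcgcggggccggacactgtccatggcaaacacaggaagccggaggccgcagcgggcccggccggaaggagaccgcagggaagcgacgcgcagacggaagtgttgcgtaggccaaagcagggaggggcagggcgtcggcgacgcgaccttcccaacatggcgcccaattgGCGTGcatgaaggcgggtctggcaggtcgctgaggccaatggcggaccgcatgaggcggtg
Kdm4c: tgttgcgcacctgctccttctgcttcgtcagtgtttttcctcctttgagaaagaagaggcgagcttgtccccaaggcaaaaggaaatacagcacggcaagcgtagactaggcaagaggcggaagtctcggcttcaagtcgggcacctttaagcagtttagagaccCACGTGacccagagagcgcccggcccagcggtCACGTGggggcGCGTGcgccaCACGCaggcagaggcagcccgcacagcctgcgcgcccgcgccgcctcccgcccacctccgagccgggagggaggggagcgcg
The Kdm3a window has 1 match, a GCGTG at -27 relative to the start. The other 2 Kdm3a windows have 0 matches. The Jmjd6 window has an ACGTG on the opposite strand at -228 and a GCGTG at -11. The Kdm4c window holds 2 CACGTG palindromes, each read as ACGTG on both strands, and 2 GCGTG matches, all between -85 and -32. The other Kdm4c window and the 1 window of Kdm4a have 0 matches, the 4 windows of Kdm2b have 1 to 3 GCGTG matches each, and the Kdm5b window has 1 match of each core. These matches are letters in a window and say nothing of binding.

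Kdm3a removes mono- and dimethyl marks from lysine 9 of histone H3 (H3K9), marks of silenced chromatin, and is a known HIF target. Its main probe read 9.70 and 9.80 in untreated TAp73-/- cells, 10.70 and 11.00 after 4 h of hypoxia and 10.69 and 10.88 after 8 h. In TAp73+/+ cells it read 10.03 and 10.14 untreated, 11.55 and 11.42 after 4 h of hypoxia and 11.17 and 11.25 after 8 h. All hypoxic arrays lay above the untreated arrays of their genotype, and at each time the TAp73-/- arrays lay below the TAp73+/+ arrays. The rise was 2.15-fold at 4 h and 2.05-fold at 8 h in TAp73-/- cells (limma, adjusted p 0.000971 and 0.00059), and 2.64-fold and 2.19-fold in TAp73+/+ cells (adjusted p 7.09e-05 and 0.000278). On the log2 scale the 8 h rises were 1.04 ± 0.13 (SE) in TAp73-/- cells and 1.13 ± 0.13 in TAp73+/+ cells. The 2 other well detected Kdm3a probes rose as well, by 1.21 and 1.26 at 4 h and 1.18 and 1.16 at 8 h in TAp73-/- cells, and by 1.48 and 1.84 at 4 h and 1.16 and 1.44 at 8 h in TAp73+/+ cells. A 4th probe, designed to another transcript record, was detected on 3 arrays only and was called in none of these comparisons (-0.10 to 0.22). All 12 calls of the 3 probes held when each array was left out in turn. In the fit with the probe disagreement score, the main probe's rises were 1.15 and 1.05 in TAp73-/- cells and 1.50 and 1.17 in TAp73+/+ cells, and the 4 h values were no longer called (adjusted p 0.0679 in TAp73-/- cells and 0.396 in TAp73+/+ cells), with an SE of 0.21 and 0.41. The 2 other Kdm3a probes then stayed called at 4 h in TAp73-/- cells (adjusted p 0.0455 and 0.0438) and not in TAp73+/+ cells (adjusted p 0.49 and 0.327).

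Kdm4a, Kdm4b and Kdm4c remove trimethyl marks from H3K9 and from H3K36, another lysine of histone H3. Kdm4b, itself a known HIF target, read 9.86 and 9.68 in untreated TAp73-/- cells, 10.57 and 10.56 after 4 h of hypoxia and 10.74 and 10.79 after 8 h at its main probe. In TAp73+/+ cells the values were 10.49 and 10.42 untreated, 11.20 and 11.13 after 4 h of hypoxia and 11.17 and 11.28 after 8 h. No hypoxic array overlapped the untreated arrays of its genotype, and the TAp73-/- arrays were below the TAp73+/+ arrays at every time. The rise was 0.79 ± 0.11 at 4 h and 1.00 ± 0.11 at 8 h in TAp73-/- cells (limma, adjusted p 0.0021 and 0.000197), against 0.71 ± 0.11 and 0.77 ± 0.11 in TAp73+/+ cells (adjusted p 0.000737 and 0.000925). The dimmer Kdm4b probe rose by 0.88 at 8 h in TAp73-/- cells and by 0.70 and 0.92 at 4 h and 8 h in TAp73+/+ cells, and its change of 0.45 at 4 h in TAp73-/- cells was not called (adjusted p 0.0873). All 7 called rises of Kdm4b held when each array was left out in turn. With the probe disagreement score in the fit they were 0.90 to 1.49, and the 4 h calls were lost (adjusted p 0.0501 in TAp73-/- cells, and 0.484 and 0.32 in TAp73+/+ cells).

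Kdm4a rose in TAp73+/+ cells at 1 of its 2 probes past the filter. Its main probe read 6.42 and 6.62 in untreated TAp73-/- cells, 6.84 and 6.41 after 4 h of hypoxia and 6.73 and 6.16 after 8 h, so the 3 groups overlapped. TAp73+/+ arrays read 5.80 and 5.87 untreated, 6.71 and 6.97 after 4 h of hypoxia and 6.55 and 6.47 after 8 h, with both hypoxic groups above the untreated one. The change was 0.11 ± 0.20 at 4 h and -0.08 ± 0.20 at 8 h in TAp73-/- cells, neither called (limma, adjusted p 0.789 and 0.833), and 1.00 ± 0.20 and 0.68 ± 0.20 in TAp73+/+ cells, both called (adjusted p 0.00311 and 0.0328). The other Kdm4a probe changed by -0.09 and 0.08 in TAp73-/- cells and by 0.31 and 0.06 in TAp73+/+ cells, with no call. The rise at 8 h in TAp73+/+ cells was lost without any 1 of the 4 arrays it compares (adjusted p 0.0769 to 0.151). With the probe disagreement score in the fit the TAp73+/+ changes were 0.10 ± 0.55 at 4 h and 0.30 ± 0.28 at 8 h, neither called (adjusted p 0.977 and 0.561).

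Kdm4c has 1 probe on the array. It read 8.63 and 8.71 in untreated TAp73-/- cells, 8.83 and 8.48 after 4 h of hypoxia and 8.86 and 8.86 after 8 h, with overlap between the 4 h and untreated arrays. In TAp73+/+ cells it read 8.41 and 8.10 untreated, 8.78 and 8.53 after 4 h of hypoxia and 8.72 and 8.77 after 8 h, with all hypoxic arrays above the untreated ones. In TAp73-/- cells the change was -0.01 ± 0.15 at 4 h and 0.19 ± 0.15 at 8 h, neither called. In TAp73+/+ cells it was 0.40 ± 0.15 at 4 h (limma, adjusted p 0.0596) and 0.49 ± 0.15 at 8 h (adjusted p 0.0394). The 8 h call of Kdm4c was lost in 7 of 12 fits that left out 1 array (the 2nd untreated TAp73+/+ array, either 8 h TAp73+/+ array, and either array of the untreated or 8 h TAp73-/- groups), with adjusted p from 0.052 to 0.183. It was also lost with the probe disagreement score in the fit (0.72 ± 0.22, adjusted p 0.0949).

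Kdm6b removes di- and trimethyl marks from lysine 27 of histone H3 (H3K27), the mark laid down by Polycomb, and is known as an early-response gene in macrophages. Its main probe read 10.23 and 10.13 in untreated TAp73-/- cells, 10.82 and 10.95 after 4 h of hypoxia and 11.05 and 11.00 after 8 h. TAp73+/+ arrays read 10.08 and 9.43 untreated, 10.78 and 10.66 after 4 h of hypoxia and 10.94 and 10.86 after 8 h. Hypoxic and untreated arrays did not overlap in either genotype, and the untreated TAp73+/+ arrays differed from each other by more than any other replicate pair of this probe. The rise was 0.71 ± 0.18 at 4 h and 0.85 ± 0.18 at 8 h in TAp73-/- cells (limma, adjusted p 0.0448 and 0.00971), against 0.96 ± 0.18 and 1.14 ± 0.18 in TAp73+/+ cells (adjusted p 0.0022 and 0.00186). A 2nd bright probe rose by 0.68 and 1.05 in TAp73-/- cells and by 0.89 and 1.12 in TAp73+/+ cells, all called. The dimmest Kdm6b probe changed by 0.19 at 4 h in TAp73-/- cells without a call (adjusted p 0.348), and rose by 0.72 at 8 h in TAp73-/- cells and by 0.33 and 0.60 in TAp73+/+ cells.

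The 4 h calls of Kdm6b in TAp73-/- cells were close to the threshold. At the main probe the call was lost in 10 of 12 fits that left out 1 array, all but those without an untreated TAp73+/+ array (adjusted p 0.056 to 0.183). At the 2nd bright probe it was lost in 8 of 12, those without an array of the untreated or 4 h TAp73-/- groups or of the 4 h or 8 h TAp73+/+ groups (adjusted p 0.0574 to 0.163). At the main probe the 8 h call in TAp73-/- cells was lost without the 2nd untreated array (adjusted p 0.059) or the 1st 8 h array (adjusted p 0.0569). The dimmest probe lost its 4 h call in TAp73+/+ cells in 10 of 12 such fits, all but those without a 4 h TAp73-/- array (adjusted p 0.0501 to 0.235), and its 8 h call without the 2nd 8 h TAp73+/+ array (adjusted p 0.0517). In every one of these fits the change stayed positive. When the probe disagreement score was a covariate, Kdm6b's main probe rose by 1.11 and 0.93 in TAp73-/- cells and by 1.90 and 1.53 in TAp73+/+ cells, called at 8 h in both genotypes (adjusted p 0.00417 in TAp73-/- cells and 0.00767 in TAp73+/+ cells) and not at 4 h.

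Jmjd6 hydroxylates lysines of splicing proteins and binds RNA, and its reported action as a histone arginine demethylase is disputed. Its 1 probe read 12.28 and 12.31 in untreated TAp73-/- cells, 13.20 and 13.15 after 4 h of hypoxia and 13.04 and 13.11 after 8 h. In TAp73+/+ cells it read 12.12 and 12.27 untreated, 13.25 and 13.20 after 4 h of hypoxia and 12.85 and 12.85 after 8 h. The 4 h arrays were the highest in both genotypes and no hypoxic array reached down to an untreated one. The rise was 0.88 ± 0.10 at 4 h and 0.78 ± 0.10 at 8 h in TAp73-/- cells (limma, adjusted p 0.000871 and 0.000795), against 1.03 ± 0.10 and 0.65 ± 0.10 in TAp73+/+ cells (adjusted p 9.69e-05 and 0.00193). All 4 calls of Jmjd6 held when each array was left out in turn. With the probe disagreement score in the fit the rises were 0.81 and 0.76 in TAp73-/- cells and 0.87 and 0.59 in TAp73+/+ cells, of which only the 8 h value in TAp73-/- cells was called (adjusted p 0.00129). The others had adjusted p of 0.0848 at 4 h in TAp73-/- cells, and 0.527 and 0.0647 at 4 h and 8 h in TAp73+/+ cells.

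**Figure D2:**
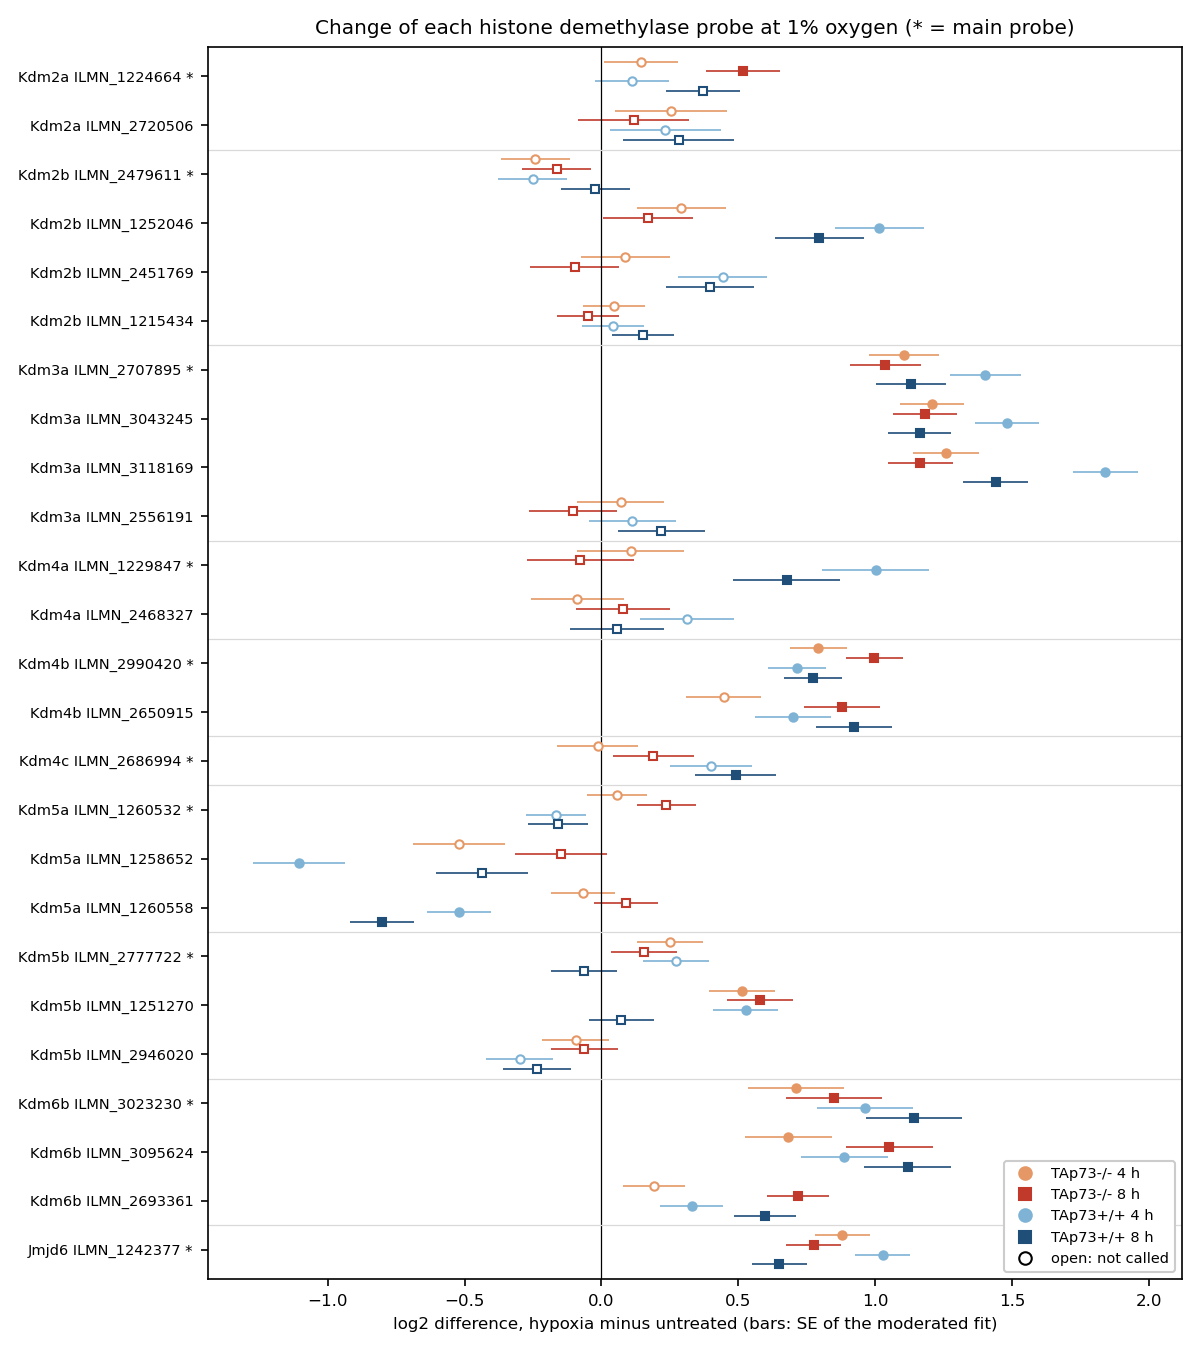
Log2 difference between hypoxia and untreated cells (horizontal axis) for each of the 25 probes past the filter (rows, grouped by gene, main probes starred), at 4 h (circles) and 8 h (squares) in TAp73-/- cells (upper pair of each row) and TAp73+/+ cells (lower pair). Bars are SE of the moderated fit and filled symbols are called: 3 probes of Kdm3a, both of Kdm4b, those of Kdm6b and the 1 of Jmjd6 lie to the right of 0 in both genotypes, while the probes of Kdm5a, Kdm5b and Kdm2b scatter around it.

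Kdm5a and Kdm5b remove di- and trimethyl marks from lysine 4 of histone H3 (H3K4), a mark of active promoters, and their probes disagreed. The main Kdm5a probe read 7.57 and 7.69 in untreated TAp73-/- cells, 7.74 and 7.64 after 4 h of hypoxia and 7.92 and 7.81 after 8 h. TAp73+/+ arrays read 8.63 and 8.78 untreated, 8.60 and 8.48 after 4 h of hypoxia and 8.54 and 8.56 after 8 h. These hypoxia differences were 0.06 and 0.24 in TAp73-/- cells and -0.17 and -0.16 in TAp73+/+ cells, with an SE of 0.11 and no call (limma). A 2nd Kdm5a probe, designed to another transcript record, fell by 1.11 ± 0.17 at 4 h in TAp73+/+ cells (adjusted p 0.000855), with 7.07 and 6.85 at 4 h against 8.22 and 7.91 untreated. Its other changes (-0.52 and -0.15 in TAp73-/- cells, and -0.44 at 8 h in TAp73+/+ cells) were not called. A 3rd Kdm5a probe fell in TAp73+/+ cells by 0.52 ± 0.12 at 4 h and 0.80 ± 0.12 at 8 h (adjusted p 0.00665 and 0.00143), and changed by -0.07 and 0.09 in TAp73-/- cells without a call. Its values in TAp73+/+ cells were 6.40 and 6.21 untreated, 5.79 and 5.78 after 4 h of hypoxia and 5.60 and 5.40 after 8 h, each group below the one before. These 3 downward calls held when each array was left out in turn. With the probe disagreement score in the fit none was called (-0.26, -0.22 and -0.68, adjusted p 0.906, 0.895 and 0.0649).

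Kdm5b rose at 1 of its 3 probes. That probe, designed to another transcript record than the other 2, read 8.96 and 9.16 in untreated TAp73-/- cells, 9.49 and 9.65 after 4 h of hypoxia and 9.61 and 9.67 after 8 h. In TAp73+/+ cells it read 9.67 and 9.87 untreated, 10.32 and 10.27 after 4 h of hypoxia and 9.90 and 9.79 after 8 h, where the 8 h and untreated arrays overlapped. The rise was 0.51 ± 0.12 at 4 h and 0.58 ± 0.12 at 8 h in TAp73-/- cells (limma, adjusted p 0.0381 and 0.00983), against 0.53 ± 0.12 at 4 h in TAp73+/+ cells (adjusted p 0.0071) and an uncalled 0.07 ± 0.12 at 8 h (adjusted p 0.707). The main Kdm5b probe changed by 0.25 and 0.15 in TAp73-/- cells and by 0.27 and -0.06 in TAp73+/+ cells, and the remaining one by -0.09 and -0.06 and by -0.30 and -0.24, with no call at either. The 4 h call in TAp73-/- cells was lost in 8 of 12 fits that left out 1 array (any array of the untreated or 4 h TAp73-/- groups or the 4 h or 8 h TAp73+/+ groups, adjusted p 0.0577 to 0.203). The 8 h call in TAp73-/- cells was lost without the 1st untreated array or the 2nd 8 h array (adjusted p 0.0889 and 0.0633), and the 4 h call in TAp73+/+ cells without the 1st untreated or the 1st 4 h array (adjusted p 0.0526 and 0.0514). With the probe disagreement score in the fit, the 8 h rise in TAp73-/- cells was kept (0.55 ± 0.12, adjusted p 0.0132) and both 4 h calls were lost (0.36 in TAp73-/- cells and 0.16 in TAp73+/+ cells, adjusted p 0.565 and 0.929).

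Kdm2a and Kdm2b remove mono- and dimethyl marks from H3K36 and bind unmethylated CpG islands, where Kdm2b brings in a variant Polycomb complex. The main Kdm2a probe read 10.37 and 10.45 in untreated TAp73-/- cells, 10.46 and 10.65 after 4 h of hypoxia and 10.78 and 11.07 after 8 h. TAp73+/+ arrays read 11.21 and 10.94 untreated, 11.19 and 11.19 after 4 h of hypoxia and 11.40 and 11.49 after 8 h. The 8 h arrays were the highest of each genotype. The change at 8 h was 0.52 ± 0.14 in TAp73-/- cells (limma, adjusted p 0.0273) and an uncalled 0.37 ± 0.14 in TAp73+/+ cells (adjusted p 0.0761), and at 4 h it was 0.15 and 0.11, neither called. The 8 h call was lost without either untreated TAp73-/- array (adjusted p 0.146 and 0.0782) or the 2nd 8 h TAp73-/- array (adjusted p 0.18). It was kept with the probe disagreement score in the fit (0.59 ± 0.11, adjusted p 0.0075), and the 8 h change in TAp73+/+ cells was called as well (0.70 ± 0.17, adjusted p 0.0486). The 2nd Kdm2a probe changed by 0.12 to 0.28 with no call.

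The main Kdm2b probe changed by -0.24 and -0.16 at 4 h and 8 h in TAp73-/- cells and by -0.25 and -0.02 in TAp73+/+ cells, with an SE of 0.13 and no call. A dimmer Kdm2b probe was at background on both untreated TAp73+/+ arrays (4.94 and 5.04) and detected on the other 10. It read 6.15 and 5.86 at 4 h and 5.88 and 5.69 at 8 h in TAp73+/+ cells, at least 1.91-fold and at least 1.65-fold higher than untreated (limma, adjusted p 0.00119 and 0.00777). These bounds set the untreated level at the higher of its own signal and the lowest signal of a detected probe on that array. In TAp73-/- cells, where it read 5.25 and 5.55 untreated, the same probe changed by 0.29 and 0.17 without a call. The 8 h call in TAp73+/+ cells was lost without the 1st 8 h array (adjusted p 0.0669), and both calls were lost with the probe disagreement score in the fit (0.47 and 0.57, adjusted p 0.827 and 0.213). The 2 remaining Kdm2b probes were each detected on 7 arrays and changed by -0.10 to 0.44 with no call.

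**Figure D3:**
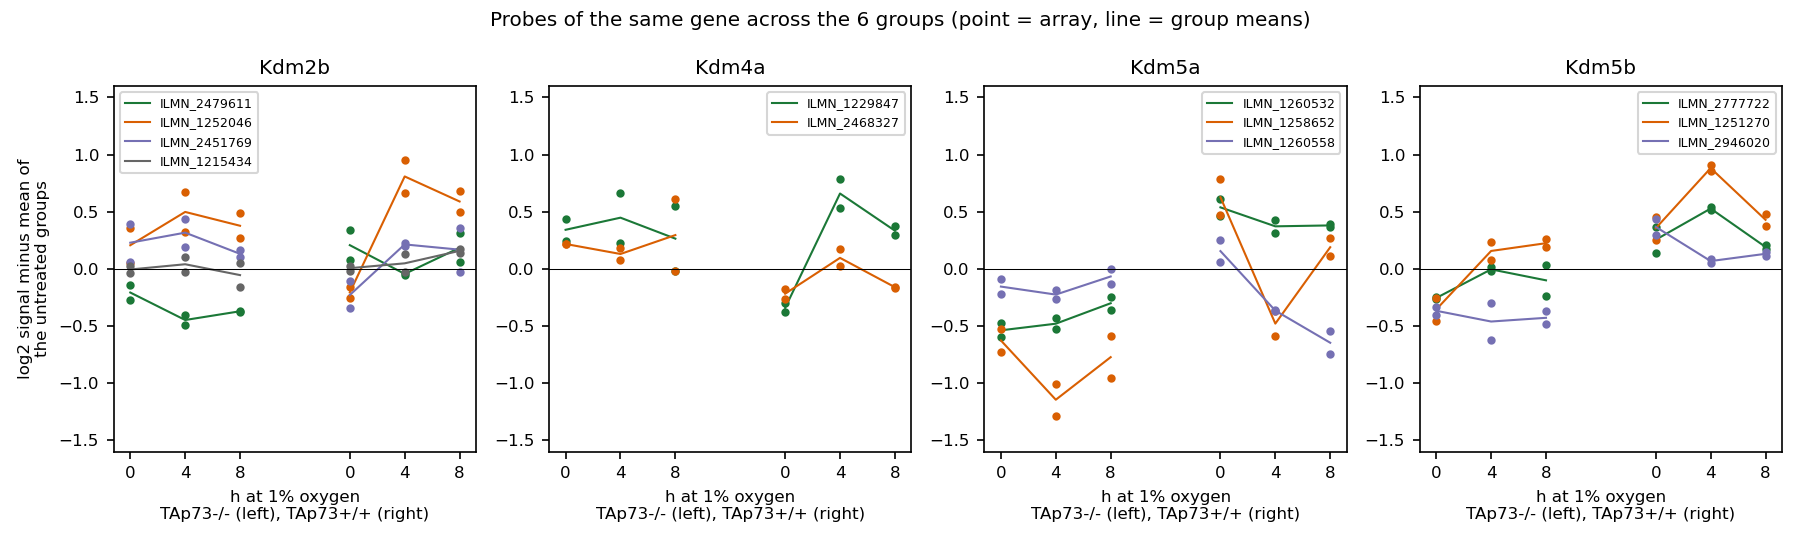
Log2 signal of each probe of Kdm2b, Kdm4a, Kdm5a and Kdm5b minus the mean of its 2 untreated groups (vertical axis) against hours at 1% oxygen (horizontal axis), with TAp73-/- arrays on the left and TAp73+/+ arrays on the right of each panel. Points are arrays and lines join group means: probes of one gene run apart, such as the 3 of Kdm5a in TAp73+/+ cells, where 1 stays level, 1 dips at 4 h and 1 falls further at 8 h.

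Between 4 h and 8 h of hypoxia, 4% of member probes were called in TAp73-/- cells and 16% in TAp73+/+ cells. These shares lie close to those of all probes and are not a result about these genes as a set. In TAp73-/- cells 1 of 25 was called, where 7.23% of all probes were (3.97% higher and 3.27% lower): the dimmest Kdm6b probe was higher at 8 h than at 4 h by 0.53 ± 0.11 (limma, adjusted p 0.0273), with 6.79 and 6.80 at 8 h against 6.28 and 6.26 at 4 h. In TAp73+/+ cells 4 of 25 were called, 1 higher and 3 lower, where 14.9% of all probes were (8.16% higher and 6.70% lower). Jmjd6 was lower at 8 h than at 4 h by 0.38 ± 0.10 (adjusted p 0.0319), as were 1 Kdm3a probe (-0.40, adjusted p 0.0477) and the rising Kdm5b probe (-0.45, adjusted p 0.0316). The Kdm5a probe that dipped at 4 h was higher (0.67, adjusted p 0.0263). The count of 4 became 0 without the 1st or 2nd 4 h TAp73+/+ array or the 2nd 8 h TAp73+/+ array, and 1 without the 1st 8 h TAp73+/+ array. The count of 1 in TAp73-/- cells became 0 without the 2nd 4 h array or either 8 h array of TAp73-/- cells and 2 without either untreated TAp73+/+ array. None of the 5 calls was kept when the probe disagreement score was a covariate (0.49 for Kdm6b in TAp73-/- cells, and -0.29 for Jmjd6, -0.12 for Kdm3a, -0.24 for Kdm5b and 0.17 for Kdm5a in TAp73+/+ cells, adjusted p 0.236 to 0.934).

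Against TAp73+/+ cells, TAp73-/- cells had less RNA of Kdm5a, Kdm4b, Kdm2a, Kdm5b, Kdm3a and Kdm2b at the main probes, averaged over the 3 times, by 0.45 to 0.87 on the log2 scale. Kdm6b, Jmjd6, Kdm4c and Kdm4a were not called at their main probes in that average. Of the 25 probes, 1 was higher and 14 were lower in TAp73-/- cells, where 58.5% of all probes were called, 26.5% higher and 32.0% lower. The 15 calls are 60% of the member probes, close to that background, so their number is not a result about these genes as a set. The calls leaned more to the lower side than those of all probes, a lean that was not tested. By time, 3 were higher and 9 lower in untreated cells (40.0% of all probes called, 18.7% higher and 21.3% lower), 0 higher and 12 lower at 4 h (31.3% called, 15.1% higher and 16.2% lower) and 1 higher and 10 lower at 8 h (33.4% called, 15.3% higher and 18.1% lower). Beside the 0 higher calls of limma at 4 h, 0 member probes were higher at an unadjusted p below 0.05. Among the lower calls at 8 h and in the average is the 4th Kdm3a probe, which was detected on 0 of 6 TAp73-/- arrays and on 3 of 6 TAp73+/+ arrays. It passed the filter only through the 8 h TAp73+/+ arrays, where it was highest, so its calls are no support. The median difference of the 10 main probes was -0.45 over the 3 times, with -0.03 over all genes. The 8 h count of 11 fell to 5 without the 2nd 8 h TAp73+/+ array and to 6 without the 1st 8 h TAp73-/- array. Under the fit that holds the probe disagreement score, 0 member probes were called in untreated cells, 4 at 4 h, 0 at 8 h and 1 in the average.

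Kdm5a differed most among the main probes. Its main probe was lower in TAp73-/- than in TAp73+/+ cells by 1.08 ± 0.11 untreated, 0.85 ± 0.11 at 4 h and 0.68 ± 0.11 at 8 h (limma, adjusted p 4.85e-05, 3e-04 and 0.00109), and its 6 TAp73-/- arrays (7.57 to 7.92) lay below its 6 TAp73+/+ arrays (8.48 to 8.78). These calls held when each array was left out in turn. With the score of probe disagreement as a covariate, the average over the 3 times was -1.12 ± 0.24 and stayed called (adjusted p 0.0356), as did the 4 h difference (-1.01, adjusted p 0.0085). The untreated and 8 h differences were then not called (-1.42 and -0.92, adjusted p 0.103 and 0.0755). The 2nd Kdm5a probe was lower by 0.96 ± 0.10 in the average (adjusted p 1.48e-05), but by an uncalled 0.33 ± 0.34 with the score in the fit (adjusted p 0.645). The 3rd Kdm5a probe went the other way at 8 h, higher in TAp73-/- cells by 0.58 ± 0.12 (adjusted p 0.00395), with 6.02 and 6.15 in TAp73-/- cells against 5.60 and 5.40 in TAp73+/+ cells.

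Both Kdm4b probes were lower in TAp73-/- cells at every time, by 0.68, 0.60 and 0.46 at the main probe in untreated, 4 h and 8 h cells and by 0.59, 0.85 and 0.64 at the other (SE 0.11 and 0.14, limma, adjusted p at most 0.00758). The 8 h calls were lost without the 2nd 8 h TAp73+/+ array (adjusted p 0.0652 and 0.0582), that of the main probe also without the 1st 8 h TAp73-/- array (adjusted p 0.0528), and that of the other probe in untreated cells without the 1st untreated TAp73+/+ array (adjusted p 0.053). The Kdm2a main probe was lower by 0.66, 0.63 and 0.52 (adjusted p 0.0032, 0.00609 and 0.0144), and the last call was lost without the 2nd 8 h TAp73+/+ array or the 1st 8 h TAp73-/- array (adjusted p 0.0904 and 0.122). All 3 Kdm5b probes were lower in untreated cells, by 0.51, 0.71 and 0.73, and at 4 h, by 0.53, 0.73 and 0.53 (adjusted p at most 0.00923). At 8 h only the last was called (-0.56, adjusted p 0.00617), with -0.29 and -0.20 at the others (adjusted p 0.0854 and 0.213). The main probe's calls were lost without the 1st TAp73+/+ array of that time (adjusted p 0.0528 untreated and 0.0549 at 4 h), and the last probe's 4 h call without either 4 h TAp73+/+ array or the 2nd 4 h TAp73-/- array (adjusted p 0.0504 to 0.063). The 3 well detected Kdm3a probes were lower at 4 h, by 0.64, 0.58 and 0.58 (adjusted p 0.00441, 0.00424 and 0.00501), and in untreated cells none of the 3 was called (-0.34, -0.31 and 0.00). At 8 h the main probe was lower by 0.43 (adjusted p 0.0256), a call lost without either 8 h TAp73+/+ array or the 1st 8 h TAp73-/- array (adjusted p 0.0707 to 0.16), and the others were not called (-0.29 and -0.28, adjusted p 0.0789 and 0.0998). The main Kdm2b probe was lower by 0.41, 0.40 and 0.56 in untreated, 4 h and 8 h cells, and every one of these 3 calls was lost without some array (adjusted p up to 0.154, 0.137 and 0.0735).

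In the fit with the probe disagreement score, the main probes of Kdm4b, Kdm2a, Kdm2b and Kdm5b had no called genotype difference at any time (for the averages, adjusted p from 0.45 to 0.994). In untreated cells the differences of the main Kdm2a, Kdm2b and Kdm5b probes then turned positive (0.18, 0.29 and 0.15), as did that of the dimmer Kdm4b probe (0.24), and that of the main Kdm4a probe turned negative (-0.26). Each of these values lay within its SE of 0 (SE 0.33 to 0.58), and none was called (limma, adjusted p 0.765 to 0.886). By contrast, 2 of the 3 Kdm3a probes and 1 Kdm5b probe stayed called at 4 h (-0.79, -0.80 and -0.90, adjusted p 0.0256, 0.0272 and 0.0219). The higher calls in untreated TAp73-/- cells were at the main Kdm4a probe (0.68 ± 0.20, adjusted p 0.0174), the Kdm4c probe (0.42 ± 0.15, adjusted p 0.0447) and one of the 2 Kdm2b probes detected on 7 arrays (adjusted p 0.0446). That Kdm2b probe was detected on 1 of 2 untreated TAp73-/- arrays and on 0 of 2 untreated TAp73+/+ arrays (5.00 and 5.34 against 4.59 and 4.83), at least 1.07-fold higher. Kdm4a lost its call without the 1st untreated TAp73+/+ or the 2nd untreated TAp73-/- array (adjusted p 0.0829 and 0.103), Kdm4c in 9 of 12 fits that left out 1 array (adjusted p 0.0503 to 0.235), and the Kdm2b probe in 6 of 12 (adjusted p 0.0565 to 0.28). In the average over the 3 times, the 1 higher call was the dimmer Kdm4a probe (0.31 ± 0.10, adjusted p 0.0199), which was lost without the 2nd 4 h TAp73+/+ array (adjusted p 0.0537). Kdm6b and Jmjd6 differed by 0.24 ± 0.10 and 0.09 ± 0.06 in the average, with adjusted p of 0.0637 and 0.192 and 95% intervals of 0.02 to 0.46 and -0.04 to 0.22.

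**Figure D4:**
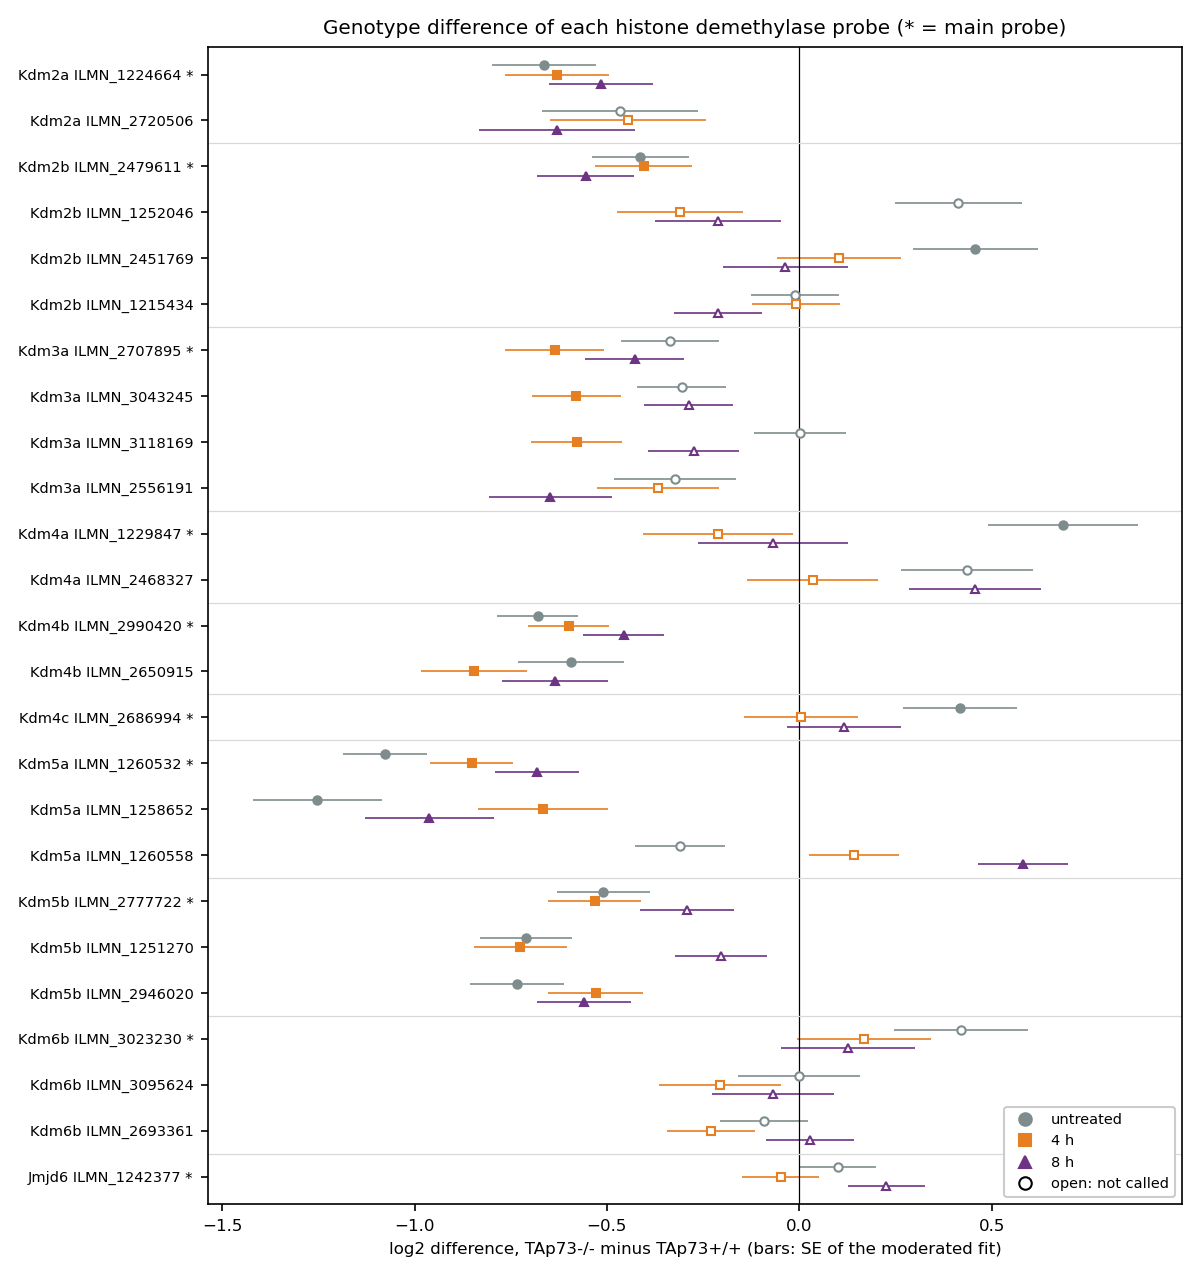
Log2 difference between TAp73-/- and TAp73+/+ cells (horizontal axis, positive where TAp73-/- is higher) for each of the 25 probes past the filter (rows, main probes starred), in untreated cells (circles), at 4 h (squares) and at 8 h (triangles). Bars are SE of the moderated fit and filled symbols are called: most probes of Kdm2a, Kdm3a, Kdm4b, Kdm5a and Kdm5b lie left of 0, and no symbol of Kdm6b or Jmjd6 is filled.

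Whether the response to hypoxia itself differed between genotypes was tested as the TAp73-/- response minus the TAp73+/+ response. Limma called 0 of the 25 member probes at 4 h and 0 at 8 h, where 0.363% and 0.217% of all probes were called. At an unadjusted p below 0.05 (limma) there were 5 member probes at each time. The share of all probes at that cut was not counted, so the 5 cannot be read as many or few. For Kdm4a, called in TAp73+/+ cells and not in TAp73-/- cells, the main probe's responses were 0.11 in TAp73-/- cells and 1.00 in TAp73+/+ cells at 4 h, a difference of -0.90 ± 0.28 (adjusted p 0.118, 95% interval -1.50 to -0.29), and -0.08 against 0.68 at 8 h (-0.75 ± 0.28, adjusted p 0.253). The 3rd Kdm5a probe had the smallest adjusted p, with a response of 0.09 in TAp73-/- cells against -0.80 in TAp73+/+ cells at 8 h (0.89 ± 0.17, adjusted p 0.0664). For Kdm3a's main probe the differences were -0.30 ± 0.18 and -0.09 ± 0.18 (95% intervals -0.70 to 0.10 and -0.49 to 0.31), and for Kdm4b's 0.08 and 0.22 (intervals -0.25 to 0.41 and -0.11 to 0.55). For Kdm6b's main probe they were -0.25 and -0.29 (intervals -0.80 to 0.30 and -0.84 to 0.25) and for Jmjd6 -0.15 and 0.13 (intervals -0.46 to 0.16 and -0.19 to 0.44). The 8 intervals of Kdm3a, Kdm4b, Kdm6b and Jmjd6 include 0.

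Among 16 other genes of JmjC oxygenases that could be tested, Kdm7a rose in all 4 comparisons of hypoxia with untreated cells. Kdm7a removes methyl marks from H3K9 and H3K27. It rose by 0.49 and 0.96 at 4 h and 8 h in TAp73-/- cells and by 0.90 and 0.92 in TAp73+/+ cells (limma, adjusted p 0.0345, 0.000369, 0.000303 and 0.000457). Hr, a corepressor of nuclear receptors with a JmjC domain, rose at 8 h by 0.51 in TAp73-/- cells and 0.99 in TAp73+/+ cells. Kdm8 moved the opposite way, falling at 8 h by 0.74 in TAp73-/- cells and 0.72 in TAp73+/+ cells (adjusted p 0.00085 and 0.000824) and at 4 h by 0.44 in TAp73+/+ cells. Riox1 fell in TAp73-/- cells at both times (-0.43 and -0.41), Riox2 at 8 h in both genotypes (-0.40 in TAp73-/- cells and -0.38 in TAp73+/+ cells), and Kdm6a, the H3K27 demethylase related to Kdm6b, in TAp73+/+ cells at both times (-0.36 and -0.39). In all, 1 rose and 1 fell at 4 h and 2 rose and 3 fell at 8 h in TAp73-/- cells. In TAp73+/+ cells, 1 rose and 3 fell at 4 h and 2 rose and 4 fell at 8 h. Among all genes, 2.39% and 8.60% rose at 4 h and 8 h in TAp73-/- cells, and 11.7% and 10.4% in TAp73+/+ cells. Downward calls made up 2.63% and 7.56% of all probes in TAp73-/- cells, and 17.0% and 10.2% in TAp73+/+ cells. The median change of the 16 other genes lay between -0.17 and 0.02, against 0.20 to 0.57 for the 10 genes described here. Both sets were chosen with earlier results of these data known, so this contrast is not a test. Averaged over the 3 times, 5 of the 16 were higher and 8 lower in TAp73-/- than in TAp73+/+ cells. Of all probes, 26.5% were higher and 32.0% lower in that average.

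**Figure D5:**
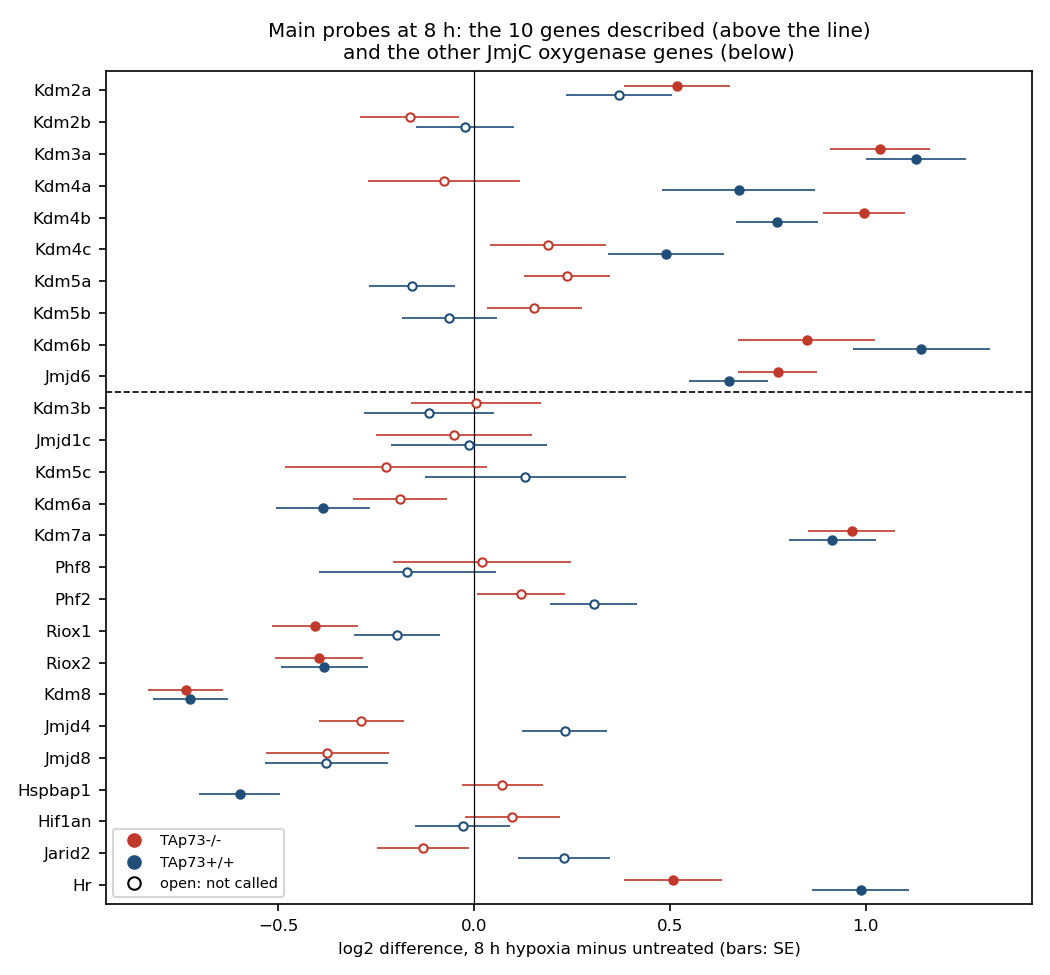
Log2 difference between 8 h of hypoxia and untreated cells (horizontal axis) at the main probe of the 10 genes described (rows above the dashed line) and of 16 other JmjC oxygenase genes (rows below it), with TAp73-/- above TAp73+/+ in each row. Bars are SE and filled points are called: of the other genes Kdm7a and Hr lie to the right of 0 in both genotypes, and Kdm8 and Riox2 to the left.

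The flavin-dependent demethylases Kdm1a and Kdm1b, which also use oxygen, were called in none of the 4 comparisons by limma (log2 changes from -0.32 to 0.32, with an SE of 0.11 and 0.13), and at an unadjusted p below 0.05 Kdm1a was higher at 4 h in TAp73-/- cells and Kdm1b lower at 4 h in TAp73+/+ cells. Of 27 genes of histone lysine methyltransferases and their Polycomb partners tested, 0 rose and 0 fell at 4 h and 0 rose and 1 fell at 8 h in TAp73-/- cells, and 3 rose and 1 fell at each time in TAp73+/+ cells. Among all genes, 2.39% and 8.60% rose at 4 h and 8 h in TAp73-/- cells, and 11.7% and 10.4% in TAp73+/+ cells. Downward calls made up 2.63% and 7.56% of all probes in TAp73-/- cells, and 17.0% and 10.2% in TAp73+/+ cells. At an unadjusted p below 0.05 (limma) the counts of the 27 in TAp73-/- cells were 1 higher and 2 lower at 4 h. At 8 h they were 10 higher and 3 lower. No share of all genes was counted at that cut, so counts at it cannot be weighed against a background. The gene that fell was Setd1b, an H3K4 methyltransferase, by 0.53 at 8 h in TAp73-/- cells and by 0.73 and 0.91 in TAp73+/+ cells (limma, adjusted p 0.0149, 0.00126 and 0.000765). Averaged over the 3 times, 2 of these genes were higher and 19 lower in TAp73-/- than in TAp73+/+ cells. Of all probes, 26.5% were higher and 32.0% lower in that average. The median of the methyltransferase list was -0.41, beside -0.45 for the 10 demethylase genes and -0.03 for all genes. With the probe disagreement score in the fit, most calls of the demethylase probes in that average were lost. The other gene lists were not examined with that score or without single arrays.

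Of 8 TET and AlkB genes, which encode 2-oxoglutarate dioxygenases acting on nucleic acids, Alkbh5, the RNA demethylase, rose by 0.58 at 4 h in TAp73-/- cells and by 0.57 and 0.51 at 4 h and 8 h in TAp73+/+ cells. Tet1, which oxidises methylcytosine, rose at 8 h by 0.60 in TAp73-/- cells and 0.64 in TAp73+/+ cells, and none of the 8 was called lower (by limma at an unadjusted p below 0.05, 1 at each time in TAp73+/+ cells and 0 in TAp73-/- cells). Of 14 genes for enzymes that make or use 2-oxoglutarate, succinate or fumarate, 0 rose under hypoxia in either genotype by limma, also at an unadjusted p below 0.05. Idh3a, a subunit of mitochondrial isocitrate dehydrogenase, fell by 0.36 at 8 h in TAp73-/- cells and by 0.41 and 0.45 at 4 h and 8 h in TAp73+/+ cells, and Ogdh, a subunit of 2-oxoglutarate dehydrogenase, by 0.59 at 4 h in TAp73+/+ cells. Of 10 partners of Kdm2b in its Polycomb complex, 0 rose and 0 fell at 4 h in TAp73-/- cells by limma (2 and 2 at an unadjusted p below 0.05), and 2 rose (Cbx8 and Pcgf1) and 2 fell (Ring1 and Skp1) at 8 h. In TAp73+/+ cells, 4 rose (Pcgf1, Bcor, Rybp and Cbx8) and 2 fell (Ring1 and Skp1) at 4 h, and 3 rose (Bcor, Rybp and Cbx8) and the same 2 fell at 8 h. The difference between the genotypes' responses was called for 0 of the 10 at either time, and at an unadjusted p below 0.05 for 2 at 4 h and 0 at 8 h. Of 12 prolyl, lysyl and aspartyl hydroxylase genes, 4 and 5 rose at 4 h and 8 h in TAp73-/- cells and 7 and 5 in TAp73+/+ cells. Among them Egln3, a sensor of oxygen that marks HIF for destruction, rose by 1.79 and 1.93 in TAp73-/- cells and 2.04 and 2.15 in TAp73+/+ cells. Egln2, of the same family, fell by 0.70 at 8 h in TAp73-/- cells (limma, adjusted p 0.00712) and was called in no other comparison of hypoxia with untreated cells. The unadjusted counts have no such count over all genes beside them. Beside the called counts of these 4 lists, 2.39% and 8.60% of all genes rose at 4 h and 8 h in TAp73-/- cells. In TAp73+/+ cells 11.7% and 10.4% rose. Downward calls made up 2.63% and 7.56% of all probes in TAp73-/- cells, and 17.0% and 10.2% in TAp73+/+ cells.

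For the 5 members whose main probe was called at both times of hypoxia in a genotype, the 3 genes with the most similar course were found among 10863 other genes. Courses were set to the mean of the 2 untreated groups, and likeness was the root mean square (RMS) log2 difference over the 12 arrays. For Kdm3a they were Ccng2, a cyclin-like gene (RMS 0.16), Dipk2a (0.21) and Kctd15 (0.24), with a median RMS of 1.04 over all genes. For Kdm4b they were Atxn7l2 (0.08), Rnf19a (0.12) and Kdm7a (0.16), against a median of 0.79. For Jmjd6 they were Pcgf5, a Polycomb component (0.12), Stam (0.14) and Lonrf3 (0.145), against 0.76. For Kdm6b they were Tbl2 (0.18), Fosl2 (0.18) and Lonrf3 (0.19), against 0.84, so that Lonrf3 was near both Jmjd6 and Kdm6b. For Kdm4a they were Snrnp70 (0.14), Ube2g2 (0.14) and Nudt12 (0.15), against 0.55.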

How the data were processed

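MEF RNA was hybridised to 12 Illumina mouse bead arrays, 2 per group. The deposited table gives, per the file headers, a mean intensity and a detection p-value per probe and array, not normalised. The authors' processed intensities, also deposited, have the same median on each array (71.506) and the same order of probes, as quantile normalisation leaves them, and served as an alternative. The submitters' processing notes name Partek without a version. Signals were corrected for background from the detection p-values, quantile-normalised and put on a log2 scale with an offset of 16 (neqc in limma 3.58.1, R 4.3.3), which understates changes of dim probes. A probe was kept where some group had it detected (p below 0.05) on 2 of its 2 arrays. The number of arrays limits the precision.

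One mean per group was fitted over 12 arrays with limma (residual df 6, prior df 4.71), and p-values were adjusted by Benjamini-Hochberg over 21223 probes in each of 12 comparisons. All tests are two-sided. Symbols came from the platform annotation, which names 1 gene for 34885 probes, several for 18 and none for 10378. The 10 genes, the gene lists and the rule for named genes (every member with every probe, up to 4 called genes each way per list and hypoxia comparison, and the 3 nearest profiles) were chosen with earlier results of these data known. The tests were tried on simulated data first. Alternatives were other background, scaling, offset, filter and sample choices, 1 probe per gene, a replicate block, and a probe disagreement score as covariate: the first component of each probe's deviation from its gene's mean, over 11589 probes, holding 50.2% of that variance. Replicate numbers did not pair the arrays (correlation of deviations -0.308 to 0.198 over 15 pairs of groups, 1 over 0.1). No slide or scan date was given, so batches could not be examined.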

Additional observations from a re-analysis of the deposited data

How the results depend on the processing

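Of 101 called values of member probes, the deposited processed values kept 99, median scaling 101, an offset of 50 kept 99, no background correction 99, no detection filter 92, fitting only the groups compared 92, and the probe disagreement score as covariate 25. Leaving out 1 array at a time, 66 were called in all 12 fits. The ranges of called member probes over these fits were 5 to 8 at 4 h, 9 to 11 at 8 h and 0 to 2 for 8 h against 4 h in TAp73-/- cells, 12 to 16, 10 to 13 and 0 to 4 in TAp73+/+ cells, and for the genotype difference 8 to 16 untreated, 8 to 12 at 4 h, 5 to 12 at 8 h and 14 to 17 in the average. With the covariate the counts were 2 at 4 h and 0 for 8 h against 4 h in TAp73-/- cells, 0 at 4 h, 8 at 8 h and 0 for 8 h against 4 h in TAp73+/+ cells, and for the genotype difference 0 untreated, 4 at 4 h, 0 at 8 h and 1 in the average. Its standard errors are larger, and what the score measures was not tested. With 1 probe per gene they were 4, 5 and 0 in TAp73-/- cells, 5, 6 and 1 in TAp73+/+ cells, and 6 at 4 h, 5 at 8 h and 6 in the average for the genotype difference. For 8 h against 4 h, testing all probes gave 2 in TAp73+/+ cells, fitting only the groups compared gave 0 in TAp73-/- cells, and keeping probes with a RefSeq transcript, chosen after seeing the data, gave 2 in TAp73+/+ cells.

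The sign of 9 genotype differences was reversed, all with the covariate: Kdm2a 0.18 untreated and 0.058 at 8 h, Kdm2b 0.29 untreated and 0.043 in the average, Kdm4a -0.26 untreated at the main probe and -0.083 in the average at the other, Kdm4b 0.24 untreated at the dimmer probe, and Kdm5b 0.15 untreated and 0.028 in the average. None of the 9 was called with the covariate (limma, SE 0.23 to 0.58, adjusted p 0.765 to 0.967), and the cause was not tested. With the replicate block, 4 calls were lost: Kdm6b at 4 h in TAp73-/- cells at 2 probes (0.71 and 0.68, adjusted p 0.0505 and 0.0512) and in TAp73+/+ cells at the dimmest (0.33, adjusted p 0.0639), and Kdm3a for 8 h against 4 h in TAp73+/+ cells (-0.40, adjusted p 0.0651). It changed no other call. With 2 arrays per group, the size of change that could be called differed between comparisons and probes. At 4 h in TAp73+/+ cells, 0.33 at the dimmest Kdm6b probe was called. At 4 h in TAp73-/- cells, 0.45 at the dimmer Kdm4b probe was not.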
